A study of Homo sapiens with 24 samples.

Results

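RNA-seq was made of OE33 cells, a human cell line of esophageal adenocarcinoma (EAC), after knockdown of YY2. The comparison uses 6 of the 24 samples of the series, all from this cell line: 3 samples of cells that received an shYY2 plasmid and 3 that received an shControl plasmid, each collected 72 h after transfection. Both groups therefore share a plasmid transfection and its duration. The shControl hairpin is not listed by the study, and whether both groups were transfected together is not given in the sources used here. All 61860 genes of the count table were considered, and the 16006 with enough counts (25.9%) were tested. The labels do not say whether the 3 samples of a group came from separate cultures, so p-values measure the spread between these samples, which may be technical.

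YY2 is a zinc finger transcription factor. It arose as a retroposed copy of YY1, and its coding sequence lies without introns inside another gene on the X chromosome. YY1 and YY2 bind closely related DNA sequences through their zinc fingers and can activate or repress a promoter, depending on the promoter and on partner proteins. The study placed YY2 downstream of the ubiquitin ligase TRIM15 and upstream of FOXRED1, which encodes an assembly factor of mitochondrial complex I. It asked by RNA-seq which genes depend on YY2 in EAC cells. In separate assays it reported that knockdown of YY2 raised proliferation, triglycerides and lipid droplets of EAC cells. The values below are RNA levels and do not measure growth or lipid content.

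The 2 shYY2 hairpins that the study lists are shown because what they match decides how the counts of YY2 can be read. They are written 5′ to 3′, with the arm that copies the target sequence in capitals, and the loop, the second arm, which is its reverse complement and pairs with the mRNA, and the cloning ends in lower case. Which of them was used for sequencing is not given in the sources used here.
shYY2 #1: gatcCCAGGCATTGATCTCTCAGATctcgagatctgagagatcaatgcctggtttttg
shYY2 #2: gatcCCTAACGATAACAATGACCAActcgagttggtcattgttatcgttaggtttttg

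Both 21-base targets lie in the coding part of the single YY2 transcript of GENCODE 29 (build GRCh38), plus strand, at chrX:21857157-21857177 for hairpin #1 and at chrX:21857052-21857072 for hairpin #2. Among all transcripts of that annotation, each target has an exact match in 2 genes, YY2 and MBTPS2. The second match falls in an exon of MBTPS2-203, a noncoding transcript of the host gene that runs into the YY2 coding sequence. MBTPS2 encodes the site-2 protease, which cleaves SREBP and ATF6 in the Golgi. Against YY1 transcripts, the best alignment of the target of hairpin #1 has 2 mismatches and that of hairpin #2 has 7.

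With shYY2, YY2 (ENSG00000230797) was counted 11, 12 and 11 times, and with shControl 43, 40 and 46 times. The groups did not overlap, although the gene was close to the limit of detection throughout. Reads from YY2 that also lie in the exon of MBTPS2 may have been left out or credited to MBTPS2. How the counting treated them is not given, so the level and fold of YY2 are uncertain. Scaled to library size, it fell from 2.35 ± 0.0241 CPM to 0.661 ± 0.0628 CPM (CPM, counts scaled to a common library total after TMM normalization; SD, n = 3), a log2 fold change of -1.82 (SE 0.22, adjusted p = 1.3e-06). YY1 (ENSG00000100811) stood at 158 ± 5.29 CPM with shYY2 and 158 ± 2.74 CPM with shControl (SD, n = 3), with overlapping groups and an adjusted p of 0.99. MBTPS2 fell too, from 70.3, 71.6 and 71.3 CPM to 53.4, 51.8 and 53.3 CPM, a log2 fold change of -0.43 (SE 0.04, adjusted p = 2.85e-08). ZFP42, the other member of this factor family, had at most 5 counts in any sample and was not tested.

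The 6 libraries held between 16371248 and 19994837 counts, and the 10 most abundant genes took 4.38% to 5.74% of them. The epithelial markers fixed for OE33 were all tested and summed to 12500 to 13200 CPM in shControl and 16800 to 17400 CPM in shYY2 samples. Of 10 leukocyte and 10 endothelial markers 1 each passed the filter, with sums of 3.84 to 4.49 and of 14.8 to 17 CPM over all 6 samples, and CD3E, CD3D, MS4A1 and TYROBP were at 0 throughout. Of the 10 fibroblast markers, 1 passed the filter, COL1A1, a collagen chain, which rose from 10.6 to 42.7 CPM, so that this list summed to 10.9 to 12.2 CPM in shControl and 42.5 to 44.4 CPM in shYY2 samples.

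Knockdown of YY2 was accompanied by a change of most of the transcriptome. With an adjusted p threshold of 0.05 in edgeR's quasi-likelihood test, 5892 genes passed as higher (36.8% of those tested) and 6105 as lower (38.1%), and the groups did not overlap for 76.3% of all genes tested. Genes were therefore ranked by size, and a call below means a change of at least 2-fold in addition. By this rule 1748 genes rose (10.9%) and 1394 fell (8.71%). A change of at least 4-fold was found for 442 genes that rose and 174 that fell, and of at least 8-fold for 91 and 20. The genes that rose took 2.66% to 2.71% of all counts in shControl and 7.08% to 7.11% in shYY2 samples. Those that fell went from between 8.47% and 8.5% to between 3.33% and 3.34%. CPM is relative to the library, so a change of the RNA content of the whole cell would not be seen, and fewer cells of a kind cannot be told apart from less RNA per cell.

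The genes that rose were on the whole weakly expressed. Their median level, averaged over both groups, was 2.86 CPM, against 12.1 CPM for the genes that fell and 20.4 CPM for all genes tested. In the quartile of genes with the lowest mean level 22.1% rose and 10.2% fell at least 2-fold, and in the highest quartile 3.95% and 5.8%. By type, 21.6% of 695 lincRNAs, 19.2% of 945 antisense genes and 9.28% of 12593 protein-coding genes rose at least 2-fold. By quartile of level, from low to high, 21.7%, 15.6%, 14.1% and 18.8% of long noncoding genes rose, against 26.3%, 12%, 5.51% and 3.9% of protein-coding genes, with 16 long noncoding genes in the highest quartile. By GC content of the transcripts, 6.08% of the quartile with the least GC rose and 17% of that with the most, while 9.47% and 6.77% fell. The part of level and GC content in these calls was not tested.

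Among genes of at least 10 CPM whose groups did not overlap, the 12 that rose most came from several functions. GBP2, an interferon-inducible GTPase, had 208, 204 and 207 CPM with shYY2 and 13.6, 13.8 and 13.4 CPM with shControl, a 15.2-fold rise (log2 fold change 3.93, SE 0.04, adjusted p = 2.66e-18). SESN3, a sestrin that restrains mTORC1 when nutrients are short, rose 11.9-fold from 1.39 to 16.7 CPM. CCN2, a matricellular growth factor and standard target of YAP, rose 10.4-fold from 15.1 to 157 CPM. MLXIPL, the glucose-responsive factor ChREBP, rose 10.2-fold, and PNPLA7, a lysophospholipase, 10.5-fold. YPEL2 rose 11.1-fold to 103 CPM and BAIAP3, a protein of vesicle trafficking, 10.1-fold to 197 CPM. SEMA6C (11.8-fold), SMIM10L2A (13-fold), ATP2A3 (10.3-fold), a calcium pump of the endoplasmic reticulum (ER), PKD1L2 (10.2-fold) and the adenylyl cyclase ADCY4 (7.77-fold) completed the group. Separate groups were a condition for entry here and for the 12 that fell most.

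The 12 that fell most contained secreted inflammatory factors and genes of DNA replication. CXCL8, the neutrophil chemokine interleukin-8, had 8.7, 8.16 and 8.71 CPM with shYY2 and 97.6, 104 and 107 CPM with shControl, a 12.1-fold fall (log2 fold change -3.59, SE 0.06, adjusted p = 1.29e-16). CXCL1, a related chemokine, fell 9.42-fold, and CSF3, the granulocyte growth factor G-CSF, fell 11-fold from 11.6 to 1.07 CPM. MCM10, which helps to activate the replicative helicase, fell 9.15-fold from 46.7 to 5.07 CPM, and CLSPN, an adaptor of the replication checkpoint, 7.64-fold from 36 to 4.7 CPM. KRT6A, a keratin of stressed squamous epithelium, fell 14.1-fold, and SERPINB2, an inhibitor of urokinase, 8.77-fold from 71.4 to 8.13 CPM. CHAC2 (8.36-fold) acts on glutathione, PDSS1 (7.98-fold) makes the side chain of coenzyme Q, and WDR4 (6.79-fold) is a subunit of a tRNA methyltransferase. NME1, a nucleoside diphosphate kinase, fell 6.7-fold, and PPIL1, a spliceosomal isomerase, 6.44-fold. Reads of close relatives such as KRT6A and KRT6B, CXCL1 and CXCL2, or NME1 and NME2 can be assigned to either copy, so values of single members are less certain.

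**Figure D1:**
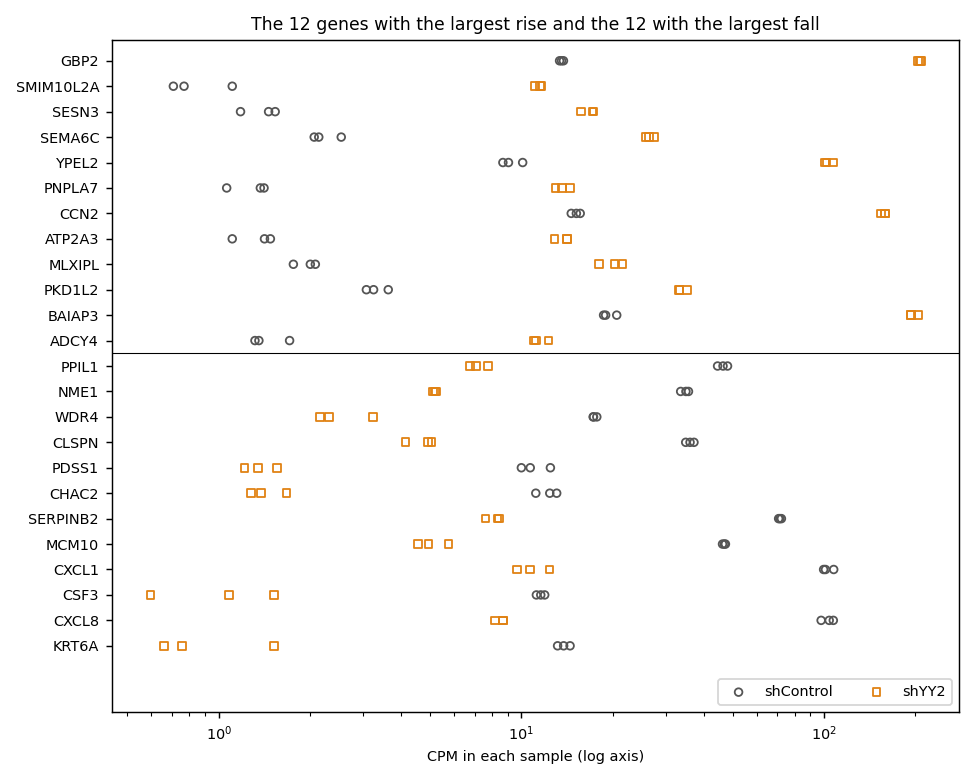
CPM in each of the 6 samples (log axis) for the 12 genes of at least 10 CPM with the largest rise and the 12 with the largest fall. Open squares are shYY2 and circles shControl samples. All 24 genes were chosen among those whose groups do not overlap, such as GBP2 with 204 to 208 against 13.4 to 13.8 CPM.

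To describe functions gained and lost, 67 lists of genes were counted, without a test of the lists, and each share is to be read against the 10.9% that rose and the 8.71% that fell among all genes. The median log2 fold change over all tested genes was -0.008. DNA replication had the lowest median of all lists, -1.23. Of its 57 tested genes 40 fell at least 2-fold (70.2%), 54 fell at any fold, and none rose 2-fold. PCNA, the sliding clamp of the replication fork, had 84.8, 86.3 and 79.9 CPM with shYY2 and 397, 383 and 374 CPM with shControl, 4.6-fold lower. MCM2, a subunit of the helicase, fell from 153 to 41.4 CPM, CDC6, which loads that helicase, from 106 to 17.1 CPM, and CDC45, which activates it, from 45.1 to 7.55 CPM. The loading factor CDT1 stood at 41.7 CPM with shYY2 and 42.9 CPM with shControl and did not pass the test.

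Nucleotide synthesis, E2F factors and DNA repair followed. Of 38 tested genes of nucleotide synthesis, 19 fell at least 2-fold and 1 rose (median -1.01). RRM2, the regulated subunit of ribonucleotide reductase, fell from 226 to 53.4 CPM, CTPS1, which makes CTP, from 51.4 to 9.09 CPM, and CAD, which starts pyrimidine synthesis, from 135 to 39.6 CPM. Thymidylate synthase (TYMS) fell by 1.60 and thymidine kinase (TK1) by 0.91 on the log2 scale. In the list of E2F and RB factors 9 of 32 genes fell and 3 rose. E2F1 fell from 65.6, 66.5 and 68.1 CPM to 15.8, 17.7 and 15.6 CPM (log2 fold change -2.03, SE 0.05, adjusted p = 2.12e-14), and E2F2 and the cyclin CCNE2 fell by 2.47 and 2.40. RB1, the retinoblastoma protein that holds E2F factors in check, fell by 0.68, whereas CDKN1C, an inhibitor of cyclin-dependent kinases, rose by 2.42. Among genes of DNA break repair and the Fanconi pathway, 17 of 45 fell and none rose at least 2-fold, including BRCA2 (-1.64), BRCA1 (-1.22) and the exonuclease EXO1 (-1.81). In mismatch and base excision repair 7 of 25 fell and none rose at least 2-fold.

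Genes of mitosis fell less. Of 62 tested genes of mitosis and the spindle checkpoint, 53 were lower at any fold, but 11 at least 2-fold (17.7%), and the median was -0.55. The proliferation marker MKI67 went from 810 to 550 CPM (log2 fold change -0.56), CCNB1, the mitotic cyclin B1, from 205 to 150 CPM, and the mitotic kinase PLK1 from 155 to 96.2 CPM. CDC25A, the phosphatase that drives entry into S phase, fell most in this list, by 2.62. Among cohesin and condensin genes 4 of 20 fell, with the acetyltransferase ESCO2 lower by 2.14. UHRF1 and DNMT1, which copy DNA methylation to the new strand, fell by 2.48 and 1.59, and 3 of 14 genes of DNA methylation fell at least 2-fold.

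Ribosome biogenesis was the other list in which most members fell. Of 64 tested genes 42 fell at least 2-fold (65.6%), 60 at any fold and none rose 2-fold, with a median of -1.20. NOP56, a core protein of the particles that methylate ribosomal RNA, had 93, 96.4 and 99.5 CPM with shYY2 and 343, 346 and 351 CPM with shControl (log2 fold change -1.85, SE 0.03, adjusted p = 2.72e-16). RRS1, PNO1 and NOL6, which act in assembly of the ribosomal subunits, fell by 2.37, 2.24 and 2.15, and MYBBP1A by 1.99. Fibrillarin (FBL) fell by 0.46. The genes of the ribosomal proteins themselves did not share this: of 79 tested, 1 fell at least 2-fold and none rose, 21 were higher and 25 lower at any fold, and the median was -0.02. Among genes of translation initiation and elongation 6 of 44 fell and 1 rose. EIF2B3, a subunit of the exchange factor of eIF2, fell by 2.06, while EIF4EBP2, an inhibitor of cap-dependent translation, rose from 158 to 336 CPM and elongation factor EEF2 rose by 0.23. Of 20 cytosolic tRNA synthetases 18 were lower at any fold and 5 at least 2-fold, led by FARSB (-2.01).

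MYC itself, which drives many genes of growth, fell by 0.30 on the log2 scale, from 259, 264 and 246 CPM to 213, 207 and 203 CPM. The 3 of 12 genes of the MYC network that changed 2-fold all rose: MLXIPL (3.35), MXD4 (2.23) and MXI1 (1.55). MXD4 and MXI1 encode proteins that compete with MYC for its partner MAX. MAX was higher by 0.21.

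Protein folding and degradation were among the functions lost. HSPA5, the main chaperone of the ER, had 359, 349 and 349 CPM with shYY2 and 1642, 1574 and 1572 CPM with shControl, a 4.53-fold fall (log2 fold change -2.18, SE 0.03). In the list of the unfolded protein response and ER chaperones 9 of 43 genes fell at least 2-fold (20.9%) and 1 rose. SDF2L1 and DNAJC10, both of the ER lumen, fell by 1.70 and 1.46 and SEC23B, a coat protein of vesicles that leave the ER, by 1.84. XBP1, HERPUD1 and DDIT3 differed less, by -0.46, -0.63 and -0.18, and the groups of DDIT3 (CHOP) overlapped (adjusted p = 0.0353, above 0.05 under several other settings). MBTPS2, whose product activates ATF6, was lower as given above, and its part in these values was not tested. Of 32 heat shock chaperones 13 fell (40.6%) and 1 rose. HSP90AA1 fell from 2269, 2196 and 2318 CPM to 813, 782 and 820 CPM and HSPA8, the constitutive Hsc70, from 1890 to 820 CPM, while HSPB1, a small heat shock protein, rose from 222 to 469 CPM. Of 37 proteasome genes 33 were lower at any fold and 10 at least 2-fold (27%), and no member was higher past the threshold. Its ATPase PSMC4 fell by 1.71 and the deubiquitinase PSMD14 by 1.67.

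In the ATF4 amino acid response 8 of 33 genes fell at least 2-fold and none rose. PSAT1 and PSPH, which make serine, fell by 1.88 and 1.52, while MTHFD2, an enzyme of mitochondrial one-carbon metabolism, changed by -1.63 and SLC7A5, a carrier of large neutral amino acids, by -1.73. TRIB3 fell by 1.27, whereas ATF4 was higher by 0.16 and ASNS by 0.33. At any fold 21 of the 33 genes were lower and 8 higher. Genes of the nuclear pore and transport fell in 9 of 35 cases, with RANBP1 lower by 1.61 and the importin KPNA2 by 1.24. DHX9, a helicase that unwinds RNA, fell 4.54-fold, from 382, 368 and 379 CPM to 81.5, 83.5 and 83.7 CPM.

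Inflammatory genes were the next group. Of 38 tested target genes of NF-kB 17 fell at least 2-fold (44.7%), none rose, and the median was -0.80. Besides CXCL8, CSF3 and CXCL1, the growth factor CSF2 fell by 3.29, the cytokine IL6 by 2.65 and the chemokine CCL20 by 2.60. TNFAIP3 (A20), a feedback inhibitor of NF-kB signaling, fell from 1409, 1436 and 1366 CPM to 346, 360 and 358 CPM. Smaller falls were found for NFKBIA (-0.39), BIRC3 (-0.56) and ICAM1 (-0.30). In the IL-1 family 4 of 14 genes fell, among them IL1A (-1.06) and the receptor IL1RL1 (-1.94). Output and feedback genes of the ERK pathway fell in 10 of 25 cases (40%) and rose in 1. FOSL1, an AP-1 subunit, fell from 361, 367 and 398 CPM to 78, 77.9 and 85.5 CPM, and the ERK phosphatase DUSP6, the Sprouty protein SPRY4 and the ETS factor ETV5 fell by 1.80, 1.64 and 1.76.

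Squamous differentiation genes, weakly expressed in these cells, fell in 12 of 27 cases (44.4%) and rose in 1. Involucrin (IVL), a protein of the cornified envelope, went from 4.95 to 0.645 CPM and SPRR3 from 17.8 to 4 CPM. Their master factor TP63 stood at 0.611 CPM with shYY2 and 0.901 CPM with shControl and did not pass the test. Of 15 keratins 5 fell and 1 rose: KRT17 fell from 296 to 116 CPM and KRT80 rose from 166 to 368 CPM. Of the simple keratins, KRT19 rose by 0.64 and KRT8 fell by 0.64 on the log2 scale. The columnar factors GATA6 (26.7 CPM in both groups), CDX2 (15.4 CPM with shYY2 and 13.5 CPM with shControl) and HNF4A (0.899 and 0.74 CPM in the same order) did not pass the test, and ELF3, an epithelial ETS factor, rose from 304 to 751 CPM.

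Among the functions gained, AP-1 and immediate early genes had the largest share, 11 of 26 (42.3%) with 1 lower, and the highest median, 0.66. NR4A1, an orphan nuclear receptor induced within minutes of a stimulus, had 298, 296 and 293 CPM with shYY2 and 42.3, 46.6 and 45.9 CPM with shControl, 6.58-fold higher. FOS rose from 119 to 456 CPM, and the zinc finger factors EGR2 and EGR3 rose by 2.67 and 2.78. BTG2, which restrains proliferation, rose by 2.72 and EGR1 by 0.61. JUN was lower by 0.14, and FOSL1 was the 1 member that fell 2-fold, so that subunits of AP-1 changed in both directions. Of 25 targets of YAP and TEAD 5 rose at least 2-fold (20%) and none fell. CCN1 rose from 168 to 680 CPM along with CCN2, whereas ANKRD1 fell from 4.59 to 2.77 CPM and YAP1 stood at 387 CPM with shYY2 and 373 CPM with shControl.

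Genes of the insulin axis rose, and the ERBB and mTOR lists were mixed. In the insulin and IGF list 5 of 24 rose (20.8%) and none fell. The leptin receptor LEPR had 52.2, 54.4 and 48.5 CPM with shYY2 and 7.69, 7.8 and 6.96 CPM with shControl, and FOXO4, a forkhead factor restrained by AKT, rose from 3.5 to 24.1 CPM. IRS2 and IGF1R, an adaptor and a receptor of insulin-like signals, rose by 1.09 and 1.02. INSR, the insulin receptor, had 28, 25 and 29 counts against 0, 0 and 2, at least 9.68-fold higher against a floor of 3 counts per library. Of 16 ERBB receptors and ligands 3 rose and 3 fell at least 2-fold (18.8% each). The receptor ERBB3 rose from 114, 117 and 119 CPM to 450, 447 and 444 CPM and the adaptor GRB7 from 359 to 1173 CPM, while EGFR stood at 906 CPM with shYY2 and 888 CPM with shControl. In the list of mTOR complexes and nutrient sensing 6 of 39 rose (15.4%) and none fell 2-fold, while 16 were higher and 14 lower at any fold, with a median of 0.05. With SESN3, DEPTOR (2.28), an inhibitor within the mTOR complexes, CASTOR2 (1.86), a relative of the arginine sensor, and the Rag GTPase RRAGD (2.40) rose, and MTOR itself fell by 0.97.

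Clock output rose in several members. Of 26 nuclear receptors and clock genes 6 rose at least 2-fold (23.1%) and none fell. PER1, a repressor of the clock, rose from 31.3 to 156 CPM, and the output factors DBP and TEF from 7.84 to 41.7 and from 12 to 39.3 CPM. BMAL1 and NR1D1, of the core loop, rose by 0.60 and 0.75. In the NOTCH list 5 of 24 rose and none fell, among them the receptor NOTCH3 (111 to 273 CPM) and the target HES1 (89.2 to 204 CPM). WNT genes rose in 6 of 35 cases and fell in 2, with the ligands WNT2B (2.35) and WNT4 (2.23) higher.

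Interferon-stimulated genes were higher at any fold in 37 of 58 cases and lower in 11, but at least 2-fold in 7 and 1, shares of 12.1% and 1.72% that are close to the background for rises. GBP2, IFITM1 (6.6 to 21.5 CPM) and RTP4 (5.51 to 16.8 CPM) led, and IFIT1 and MX1 rose by 0.47 and 0.53. Mucins rose in 4 of 13 cases and fell in 2. MUC3A and MUC13, of the cell surface, rose by 2.08 and 1.71, whereas MUC5AC, a gel-forming gastric mucin, fell from 7.46 to 2.92 CPM and its companion TFF1 by 2.23.

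Survival genes and p53 targets were mixed. BMF, a BH3-only protein that promotes cell death, rose from 13.7, 14.5 and 14.5 CPM to 99.6, 102 and 101 CPM, and BCL2L11 (BIM), of the same class, from 41.3 to 110 CPM. BCL2, which opposes them, fell from 2.98 to 1.08 CPM, while MCL1 rose by 0.38 and BCL2L1 stood at 214 CPM with shYY2 and 218 CPM with shControl. Among p53 targets 5 of 35 rose and 2 fell. TP53INP1 rose by 2.57, but CDKN1A (p21) fell from 210 to 135 CPM, MDM2 by 0.48 and AEN, a nuclease of apoptosis, by 2.32.

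**Figure D2:**
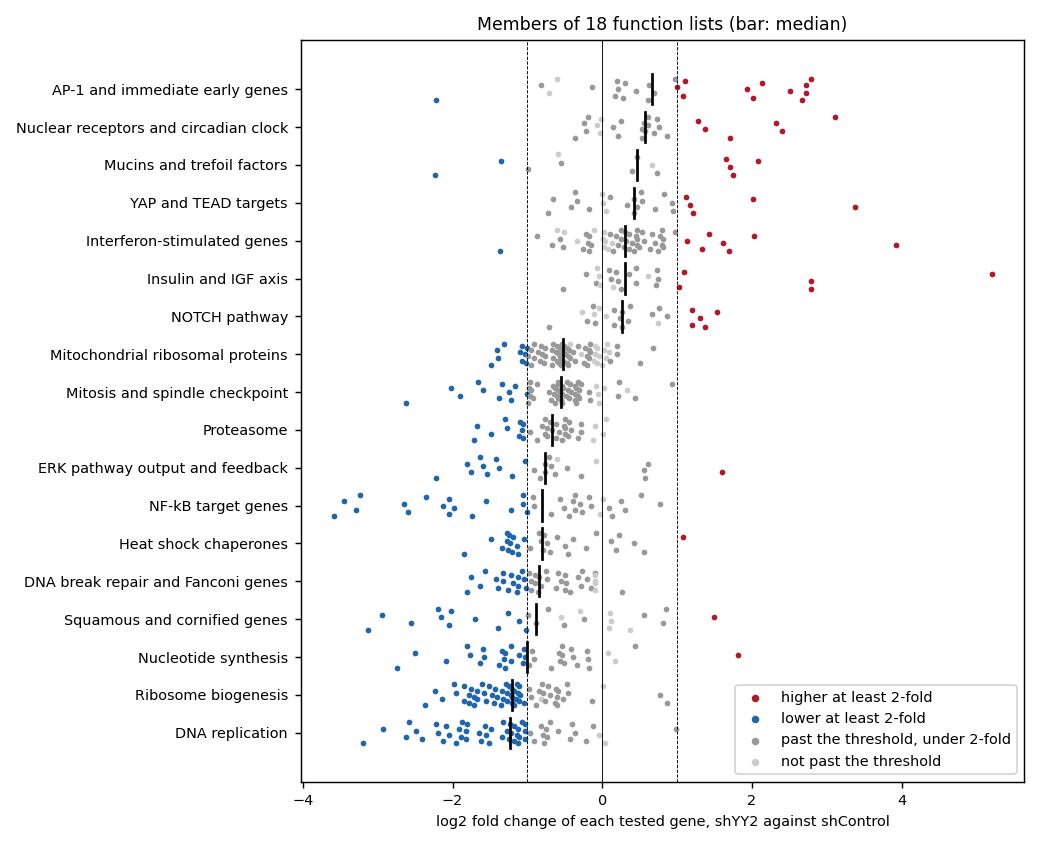
Log2 fold change of every tested gene of 18 function lists, those with at least 10 genes past 2-fold in one direction and the next 6 with the highest medians. Black bars are medians, from -1.23 for DNA replication to 0.66 for immediate early genes; red and blue points rose or fell at least 2-fold, grey points passed the p threshold below 2-fold and pale points did not pass.

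Lipid and energy metabolism, which the study connects to YY2, moved in parts. In triglyceride synthesis, droplets and lipolysis 6 of 31 genes rose (19.4%) and 2 fell. PNPLA2, the lipase that opens the breakdown of stored triglyceride, had 241, 243 and 238 CPM with shYY2 and 83.3, 81.6 and 77.2 CPM with shControl. The droplet coat proteins PLIN5 (0.51 to 6.33 CPM) and PLIN4 (0.829 to 6.15 CPM) and the glycerol channels AQP3 (33.9 to 150 CPM) and AQP7 (0.181 to 3.55 CPM) rose. PLIN2, the droplet coat of most cells, fell by 0.68, and of the enzymes of synthesis GPAM fell by 0.88 and DGAT1 rose by 0.35.

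Of 38 genes of cholesterol synthesis and uptake 4 fell and 2 rose at least 2-fold. The synthesis enzymes HMGCS1 and SQLE fell from 102 to 46.1 and from 118 to 53.4 CPM. SREBF2, the factor that governs these genes, rose by 0.33 and the sterol exporter ABCG1 rose by 1.94. Fatty acid synthesis had 2 genes lower and 2 higher of 21: FASN, fatty acid synthase, fell by 1.01, SCD by 0.66 and ACACA by 0.72, while ACLY rose by 0.73. PPARA, a receptor that turns on fatty acid oxidation, rose from 52.8 to 174 CPM, and 2 of 33 genes of fatty acid activation and beta-oxidation rose at least 2-fold (6.06%) with none lower, while 17 were higher and 8 lower at any fold. CPT1A, which brings fatty acids into mitochondria, rose by 0.29. MBTPS2 acts on SREBP as well, and its part in the sterol genes was not tested.

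PDK4, a kinase that shuts off pyruvate dehydrogenase, had 311, 319 and 314 CPM with shYY2 and 41.7, 40.8 and 41.7 CPM with shControl, 7.6-fold higher (log2 fold change 2.93, SE 0.03, adjusted p = 6.83e-18). PDK2 rose by 1.47 and PDK1 fell by 1.38, and pyruvate carboxylase (PC) rose by 1.28. Glycolysis had 4 of 28 genes lower and 1 higher, with PKM (1948 to 877 CPM), PGAM1 (375 to 146 CPM) and LDHA (2098 to 1023 CPM) among the falls. GAPDH fell by 0.31 and HK2 by 0.19. Complex I subunits and assembly factors were lower at any fold in 30 of 49 cases and at least 2-fold in 3, with 1 higher, and complexes III, IV and V in 22 and 1 of 44. CYCS, cytochrome c, fell by 1.51. Mitochondrial ribosomal proteins were lower at any fold in 58 of 76 cases and at least 2-fold in 10 (13.2%).

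The list of ferroptosis and iron genes moved both ways, with 7 of 35 lower and 3 higher at least 2-fold, 14 lower and 15 higher at any fold, and a median of 0.10. SAT1, of polyamine breakdown, rose by 1.41. The lipoxygenase ALOX5 rose by 1.44 (SE 0.37) but varied within groups, from 17.5 to 38.9 CPM with shYY2 and from 2.67 to 17.4 CPM with shControl, and did not pass DESeq2's Wald test (adjusted p = 0.0873). TFRC, the transferrin receptor, fell from 563, 557 and 579 CPM to 136, 136 and 139 CPM. SLC3A2, the shared heavy chain of several amino acid carriers, fell from 451, 445 and 420 CPM to 168, 168 and 162 CPM, and its partner SLC7A11, which imports cystine, from 153 to 82.8 CPM. GPX4, the glutathione peroxidase that removes lipid peroxides, rose from 151 to 269 CPM (log2 fold change 0.83). The study reported higher SLC3A2 mRNA after knockdown of FOXRED1, and a negative correlation of FOXRED1 with SLC3A2 and GPX4 levels. It also reported more glutathione after knockdown of YY2. With shYY2, where FOXRED1 was lower too (-0.89), SLC3A2 moved opposite to that report and GPX4 in its direction. In the NRF2 and glutathione list 6 of 35 rose and none fell 2-fold. The members that rose were chiefly reductases and transferases such as AKR1C3 (1.96) and GSTA4 (2.04), whereas GCLM, of glutathione synthesis, fell by 0.48 and NFE2L2 (NRF2) was higher by 0.11. Of 52 lysosome and autophagy genes 34 were higher at any fold, 4 at least 2-fold and none lower 2-fold, with ULK1, a kinase that starts autophagy, higher by 1.38.

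The study singled out 12 genes by crossing its CUT&Tag map of YY2 binding with its RNA-seq of TRIM15 and of YY2. They were thus chosen in part for YY2 binding. The YY2 RNA-seq consists of these samples, so the direction of these genes is not independent evidence. All 12 were lower with shYY2, 2 of them at least 2-fold, E2F1 and QTRT1. FOXRED1 (ENSG00000110074) had 19.1, 16.1 and 17.9 CPM with shYY2 and 33.6, 32.1 and 32.6 CPM with shControl, a log2 fold change of -0.89 (SE 0.06, adjusted p = 3.31e-09). QTRT1, a subunit of the enzyme that puts queuine into tRNA, fell by 1.20, EXOSC6, an RNA exosome subunit, by 0.98 and BOP1, of ribosome assembly, by 0.96. ATP13A1 (-0.84), VGF (-0.83), PASK (-0.80), RBM23 (-0.55), SPC24 (-0.52), INO80E (-0.39) and SAC3D1 (-0.31) fell less. By size FOXRED1 thus stood below the 2-fold limit that 1394 genes passed. In separate assays the study reported binding of YY2 at the FOXRED1 promoter. It also reported lower FOXRED1 mRNA and protein after knockdown of YY2.

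A promoter window from RefSeq (GRCh38.p14, from 250 bases before to 50 after the gene start) was used for 10 of these 12 genes, and FOXRED1 and BOP1 were not searched. The YY motif CCATNTT, searched on both strands, occurred in 5 of them, ATP13A1, EXOSC6, INO80E, QTRT1 and RBM23. Those of QTRT1 (chr19:10701189-10701488, plus strand), INO80E (chr16:29995991-29996290, plus strand) and RBM23 (chr14:22919100-22919399, minus strand) are shown, because their matches lie differently, with the motif in capitals.
QTRT1: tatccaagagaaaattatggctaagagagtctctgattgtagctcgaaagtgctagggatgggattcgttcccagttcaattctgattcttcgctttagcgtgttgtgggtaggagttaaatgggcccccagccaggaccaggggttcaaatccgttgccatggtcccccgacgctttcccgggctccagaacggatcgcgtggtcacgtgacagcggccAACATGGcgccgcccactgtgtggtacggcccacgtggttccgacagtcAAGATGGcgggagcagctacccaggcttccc
INO80E: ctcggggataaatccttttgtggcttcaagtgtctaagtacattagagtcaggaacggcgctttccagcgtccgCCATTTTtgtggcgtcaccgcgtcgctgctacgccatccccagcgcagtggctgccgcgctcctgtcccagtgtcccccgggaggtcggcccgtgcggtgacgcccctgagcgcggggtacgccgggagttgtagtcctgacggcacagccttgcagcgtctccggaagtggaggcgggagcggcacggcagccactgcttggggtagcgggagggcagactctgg
RBM23: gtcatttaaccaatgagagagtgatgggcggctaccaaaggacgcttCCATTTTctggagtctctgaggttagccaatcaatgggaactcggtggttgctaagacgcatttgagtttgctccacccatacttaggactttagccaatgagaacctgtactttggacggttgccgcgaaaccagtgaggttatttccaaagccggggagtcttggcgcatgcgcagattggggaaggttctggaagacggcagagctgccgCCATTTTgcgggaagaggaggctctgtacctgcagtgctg

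Over all 10210 protein-coding genes with a window (81.1% of those tested), CCATNTT occurred in 15.3%, and over the 892 that fell at least 2-fold in 15.6%. The genes that fell thus held it about as often as all genes. The E2F motifs TTTCCCGC and TTTGGCGC occurred in 2.6% and 1.06% of all windows and in 4.26% and 2.69% of those of genes that fell, and the E-box CACGTG in 10.1% and 13.6%. The ETS motif CCGGAAG occurred in 18.9% and 20.9%. None of these motifs contains another. The other motifs counted follow in the same order. The longer YY form GCCATNTT occurred in 9.95% and 9.75%, and the NF-kB motif GGGANTTCC in 2.27% and 2.35%. AP-1 (TGANTCA) had 4.63% and 5.61%, STAT or interferon (TTCNNNGAA) 6.26% and 7.62%, and CRE (TGACGTCA) 3.17% and 3.59%. The CCAAT box had 36.4% and 39.8% and FOXO (GTAAACA) 2.33% and 2.24%. Of the genes that fell 80.4% had a window, just above the limit of 80%. For genes that rose, 74.4% had a window, under this limit, so the same count over them is void. A match is a description of letters and not a binding site.

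By symbol, families of at least 10 tested genes with the largest share of falls were MCM (8 of 11), UTP (6 of 10), CCT (5 of 11), TIMM (6 of 15), OR (4 of 11) and HSPA (4 of 12). These are the replicative helicase and its relatives, a part of the ribosome assembly machinery, the cytosolic chaperonin, the import machinery of mitochondria, olfactory receptor pseudogenes with near-identical copies, and Hsp70 proteins. OR also had 2 genes that rose at least 2-fold and HSPA 1, and the median of OR was 0.11. The largest share of rises was found for SYT (6 of 12), CYP (12 of 26), MUC (5 of 11), RN (5 of 11), PRSS (6 of 14) and AKR (4 of 11), that is synaptotagmins, cytochrome P450 enzymes, mucins, copies of small RNA genes, serine proteases and aldo-keto reductases, antisense partners and pseudogenes included. Here CYP also had 3 genes that fell at least 2-fold and MUC and RN 1 each, and the median of AKR was -0.09.

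By counts, 16 genes were at or under 3 counts in every sample of a group and at 20 counts or more in every sample of the other. With INSR, 14 of them were found in the shYY2 samples, including SGSM1 (at least 15.4-fold), the netrin NTN5 (at least 13.6-fold), the matricellular protein CCN5 (at least 9.97-fold) and the glutamate carrier SLC17A7 (at least 9.76-fold). The other two, higher in the shControl samples, were PIK3CG, a catalytic subunit of PI3-kinase (at least 7.81-fold lower with shYY2), and FBN2, fibrillin-2 (at least 7-fold lower).

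The shFOXRED1 experiment, also in OE33 cells after 72 h and with 3 shControl samples of its own, shows where the changes with shYY2 differ from those after knockdown of its proposed target. FOXRED1 fell there from 17.4 ± 0.286 CPM to 10.1 ± 1.19 CPM (SD, n = 3), a log2 fold change of -0.78, against -0.89 with shYY2, and these 2 effects did not differ past the threshold (difference -0.11, SE 0.13, adjusted p = 0.48, edgeR's quasi-likelihood test of the interaction). In 1 fit over 12 samples the effects differed at least 2-fold for 1557 of 17146 genes with shYY2 higher (9.08%) and for 1428 with shYY2 lower (8.33%). The target, the hairpin and the experiment differ together, so their parts in these differences cannot be told apart. The shControl samples also differed, with FOXRED1 at 32.8 CPM in the YY2 experiment and 17.4 CPM in the FOXRED1 experiment. YY2 stood at 2.35 and 1.43 CPM in the same order. In its own comparison shFOXRED1 gave 344 genes higher and 200 lower at least 2-fold. Of the genes that fell 2-fold with shYY2 and were tested in both, 37.6% of 1258 were lower and 7.23% higher at any fold with shFOXRED1, against 20.7% and 16.9% of all 14922. For the 1433 that rose, 30% were higher and 7.68% lower with shFOXRED1.

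Of the 67 lists, ribosome biogenesis had the largest difference of medians between the knockdowns. Its median was -1.20 with shYY2 and -0.22 with shFOXRED1, and 33 of 64 genes fell at least 2-fold further with shYY2, NOP56 by 1.70 (SE 0.06). DNA replication had medians of -1.23 and -0.60, with 16 of 57 genes further down with shYY2, such as PCNA (-2.20 and -0.78) and MCM10 (-3.19 and -0.90). For NF-kB targets the medians were -0.80 and -0.01, and 16 of 38 genes differed in this direction, CXCL8 with -3.59 and -0.20. HSPA5 changed by -2.18 and 0.04. Mitosis genes had medians of -0.54 and -0.65, with 5 of 62 further down and 2 further up with shYY2, while interferon-stimulated genes had medians of 0.32 and 0.44, with 8 of 58 further down and 4 further up with shYY2. CCN2 moved in opposite directions, by 3.38 with shYY2 and -1.86 with shFOXRED1 (difference 5.24, SE 0.18), and PDK4 changed by 2.93 and -0.08.

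**Figure D3:**
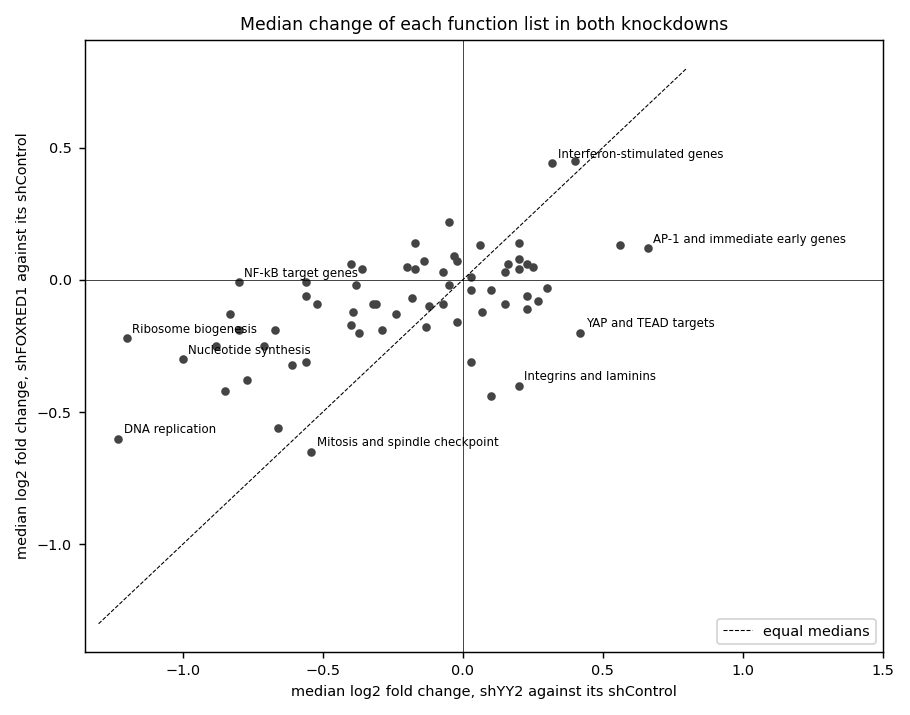
Median log2 fold change of each of 67 function lists with shYY2 (horizontal) and with shFOXRED1 (vertical), each against its own shControl; the dashed line marks equal medians. Ribosome biogenesis lies at -1.20 and -0.22, DNA replication at -1.23 and -0.60, and mitosis near the line at -0.54 and -0.65.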

How the data were processed

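Messenger RNA of OE33 cells was captured with poly-T and sequenced from both ends on a DNBSEQ machine. The table the authors deposited holds counts for 61860 Ensembl identifiers, whole numbers with no normalization, in columns named for the samples. Aligner, counter and annotation are not given in the sources used here, and the submitters' processing notes list the builds hg38 and mm10 without a role. The labels name a directional kit and the methods its undirected form, so whether counting used strand is not settled, and antisense partners are uncertain. All 37 mitochondrial genes, and EEF1G and SMARCB1, which most cells express, had 0 counts in all 6 libraries, so a count of 0 is no evidence of absence. Libraries held 16371248 to 19994837 counts.

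In R 4.3.3, genes were filtered with edgeR 4.0.16 (filterByExpr, minimum count 10, minimum total 15), scaled by TMM and tested with glmQLFit and glmQLFTest, with Benjamini-Hochberg adjustment over all 16006 genes. A call needed an adjusted p under 0.05 and, where stated, a log2 fold change of at least 1. The SE was derived from the fold change and its F statistic. Difference between knockdowns was an interaction contrast over 12 libraries and 4 groups. A planned contrast with the HA-TRIM15 experiment was not run, because the header of its table has more cells than columns. An exact test of 3 against 3 samples cannot go below p = 0.1. The script was tested on simulated counts. DESeq2 1.42.0 served as an alternative.

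The 67 function lists and the rule were chosen with earlier results of these data known, and lists were counted, not tested. Named are YY2, YY1 and ZFP42, the study's genes, the 12 genes with the largest fold in each direction (symbol, at least 10 CPM in the higher group, groups apart), and in each list its defining genes and the 4 with the largest fold past 2-fold and 1 CPM. MBTPS2 and the genes at the floor other than INSR were named after their values were seen or by the floor rule (at most 3 counts in every library of a group, at least 20 in the other). Symbols were found for 68% of identifiers. Replicate pairs differed by 1.47 to 3.25 in chi-square per gene, where sampling alone gives 1. The p-values cover the spread between libraries only. Some genes are not reported here.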

Additional observations from a re-analysis of the deposited data

How the results depend on the processing

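With a test against 2-fold itself (glmTreat) the counts of genes that rose and fell dropped to 1057 and 803, and mitochondrial ribosomal proteins lower to 4. The other settings (DESeq2's size factors, total counts, no filter, at least 10 counts in every library, DESeq2's Wald test) left the counts over all genes and those of the lists with at least 10 calls within 1.5 times. Scalings shifted the median of all genes by at most 0.016. Of 852 medians of lists under other settings, 182 moved by more than the spread of the values with a library left out and 1 reversed (medians within 0.1 of 0 not counted), that of the fibroblast markers (-0.189 with no filter, where markers with few counts enter). The replicate numbers did not pair libraries (correlations of deviations -0.0193, 0.0511 and 0.097). With the replicate number as a block, 1751 genes rose and 1395 fell at least 2-fold, and 2981 genes differed from shFOXRED1 in place of 2985. Leaving out each library gave 1823 to 1961 higher and 1459 to 1534 lower genes. Of 4948 values of 414 named genes, 53 lost and 11 gained the threshold, DDIT3 and NQO1 most often, and none reversed. YY2, with 11 to 46 counts, is measured least precisely of the genes the comparison rests on. The planned contrast with HA-TRIM15 was not run.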
